A study of Mus musculus with 16 samples.

Results

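The 10 genes described here encode the T cell receptor complex of the epidermal T cells of the mouse, together with a pair of receptors and a chemokine that these cells are known to make and that other lymphocytes make as well. They were picked by symbol as known genes of these cells, with earlier results of these data known, and they make up 10 of the 55359 genes listed for each mouse. The signalling chains are *Cd3d*, *Cd3e*, *Cd3g* and *Cd247* (CD3 zeta), the receptor chain genes are *Trdc* (delta constant region), *Trdv4* and *Tcrg-V5* (delta and gamma variable segments), and the remaining genes are *Klrk1* (the receptor NKG2D), *Il2rb* (the receptor subunit shared by interleukins 2 and 15) and *Xcl1* (the chemokine lymphotactin).

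Dendritic epidermal T cells are gamma-delta T cells that seed mouse epidermis before birth and stay there among the keratinocytes. Nearly all of them carry the same receptor, in which a gamma chain built from the *Tcrg-V5* segment pairs with a delta chain built from the *Trdv4* segment. On the cell surface this pair is held by the CD3 chains, which carry the signal inwards. NKG2D reads stress ligands on keratinocytes, and interleukin 15 keeps the cells in the epidermis. Alpha-beta T cells use the same CD3 chains, so that *Cd3d*, *Cd3e*, *Cd3g* and *Cd247* do not separate the lineages, whereas *Trdc*, *Trdv4* and *Tcrg-V5* belong to the gamma-delta lineage.

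RNA came from whole dorsal skin, and not from separated epidermis, of wild-type C57Bl/6 mice (C57Bl/6N in the study's text) that were 8 weeks old and in telogen, when hair follicles rest. Males and females were either given UVB 3 times and sampled 6 h after the third exposure, on day 5, or given no UVB, with 4 mice in each of the 4 groups. All 16 mice were thus of the same genotype, age and hair cycle phase, and the methods describe shaving only for the irradiated mice. The comparisons ask how UVB changed each gene in each sex, and whether the sexes differed in that response or in their levels. Values are CPM, counts relative to the total reads on genes and scaled between libraries by the TMM method, from 16495776 to 33404831 reads per mouse. In a bulk sample, fewer cells of a type and less RNA per cell cannot be told apart.

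All 10 genes passed the main filter on low counts in the male, the female and the 16-mouse fit. Total reads over the 16 mice ran from 296 for *Tcrg-V5* to 6391 for *Il2rb*, and the smallest count in any mouse was 6, for *Tcrg-V5*. The label of the 10 genes as epidermal was checked against other T cell genes. *Trac*, the alpha constant region, was present in every mouse, and per kb of exon it stood above *Trdc* in every group by mean. The levels were 12.2 ± 6.84 CPM per kb (mean ± SD, n = 4) against 2.74 ± 0.499 for *Trdc* in no-UVB females and 8.25 ± 2.19 against 1.64 ± 0.349 in UVB-irradiated females. In males they were 6.89 ± 1.40 against 2.31 ± 0.292 without UVB and 3.08 ± 0.726 against 1.59 ± 0.187 after UVB. This order depended on the annotated exon lengths, 935 bases for *Trac* and 3865 for *Trdc*. In plain CPM *Trdc* had the higher mean in males, at 8.94 against 6.44 without UVB and 6.14 against 2.88 after UVB. In females *Trac* had the higher mean in plain CPM as well. Which transcript was more abundant was therefore not settled. Skin of these mice therefore held alpha-beta as well as gamma-delta T cell transcripts, and the CD3 chains are named here as chains of all T cells. *Il2rb*, *Klrk1* and *Xcl1* are likewise not particular to gamma-delta T cells.

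The variable segments are printed since they are what ties *Trdv4* and *Tcrg-V5* to this receptor. Each sequence gives the last 200 bases of the variable exon in lower case, on the plus strand of GRCm39, and then the recombination heptamer in capitals, where the segment is cut and joined. *Trdv4* is shown from chr14:54312773-54312979 and *Tcrg-V5* from chr13:19376696-19376902. The heptamer of *Tcrg-V5* had 0 mismatches to CACAGTG and that of *Trdv4* had 1.
Trdv4: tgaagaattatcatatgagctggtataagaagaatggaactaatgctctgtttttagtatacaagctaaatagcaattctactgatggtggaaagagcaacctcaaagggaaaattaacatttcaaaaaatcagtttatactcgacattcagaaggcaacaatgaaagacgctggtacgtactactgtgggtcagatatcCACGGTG
Tcrg-V5: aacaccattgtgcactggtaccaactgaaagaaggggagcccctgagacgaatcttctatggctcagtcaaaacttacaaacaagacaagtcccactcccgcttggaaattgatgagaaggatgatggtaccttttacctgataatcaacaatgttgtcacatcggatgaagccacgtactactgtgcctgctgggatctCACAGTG
In a rearranged gene the capitals are lost and the lower-case part is transcribed. *Trdc*, at chr14:54380308-54386325, lies downstream of *Trdv4* on the same strand, and the 2 genes are joined in the finished receptor transcript.

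*Cd3d*, *Cd3e* and *Cd3g* sit side by side on chromosome 9, within 40056 bases, and the starts of *Cd3g* and *Cd3d* lie 1348 bases apart and point away from each other. Their promoters are printed as those of neighbouring genes. These genes varied together between mice, as described further on, but so did *Cd247* and *Trac*, which lie on other chromosomes. A link between the promoters and that variation was not tested. The 250 bases before each start are given from RefSeq on GRCm38.p6, read in the direction of the gene, at chr9:44981536-44981785 for *Cd3d*, chr9:45009612-45009861 for *Cd3e* and chr9:44980432-44980681 for *Cd3g*. Capitals mark an ETS motif, searched as CAGGAA on both strands, and would also mark a RUNX motif, searched as TGTGGT.
Cd3d: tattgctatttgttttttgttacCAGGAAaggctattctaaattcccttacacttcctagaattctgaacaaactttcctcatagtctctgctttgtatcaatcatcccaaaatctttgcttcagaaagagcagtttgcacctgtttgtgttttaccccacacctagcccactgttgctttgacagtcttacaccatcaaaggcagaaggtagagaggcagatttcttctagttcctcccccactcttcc
Cd3e: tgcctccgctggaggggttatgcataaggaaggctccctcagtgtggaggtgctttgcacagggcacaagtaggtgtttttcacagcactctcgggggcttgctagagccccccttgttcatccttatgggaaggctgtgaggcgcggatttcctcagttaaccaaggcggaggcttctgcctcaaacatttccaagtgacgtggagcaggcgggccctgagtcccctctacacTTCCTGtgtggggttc
Cd3g: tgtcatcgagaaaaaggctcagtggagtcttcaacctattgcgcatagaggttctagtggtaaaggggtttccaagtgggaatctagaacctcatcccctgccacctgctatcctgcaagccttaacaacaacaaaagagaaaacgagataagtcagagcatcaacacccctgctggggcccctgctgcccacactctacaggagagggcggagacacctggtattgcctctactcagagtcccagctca
The ETS motif was found once each before *Cd3d* and *Cd3e* and not before *Cd3g*, and the RUNX motif was found before none of these 3 genes. Over 32851 promoters of the same length, 25.7% held the ETS motif and 14% the RUNX motif. A promoter was held for 6 of the 10 genes, and 4 were without one (*Trdc*, *Trdv4*, *Tcrg-V5* and *Il2rb*).

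UVB lowered most of these genes in males. By the quasi-likelihood test of edgeR over 16535 genes, with a threshold of 0.1 on the p adjusted after Benjamini and Hochberg, 8 of 10 fell and 0 rose, with a median log2 fold change of -0.57 over the 10 genes and -0.02 over all genes tested. The background was wide, since 30.5% of all genes tested fell and 29.0% rose in males. No member fell past 2-fold, as 3.31% of all genes did. For 7 of the 10 genes every irradiated male lay below every control, as for 24.3% of all genes tested, and for a further 22.9% of all genes every irradiated male lay above.

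In females fewer of the 10 genes passed. Over 16883 genes tested, 4 of 10 fell (*Cd3g*, *Cd3e*, *Trdc* and *Trdv4*) and 0 rose, with a median log2 fold change of -0.40 over the 10 genes and 0.00 over all genes. Of all genes tested in females, 10.6% fell, 12.8% rose and 1.08% fell past 2-fold, and again no member was past 2-fold. For 3 of the 10 genes every irradiated female lay below every control, as for 10.1% of all genes, and for a further 11.1% every irradiated female lay above. The count of 4 became 2 without UVB female replicate 1, 3 or 4 and 1 without no-UVB female replicate 2. Calls over all genes shrank in these fits too, from 1787 lower to 1284, 1210, 1297 and 1361, in the same order.

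**Figure D1:**
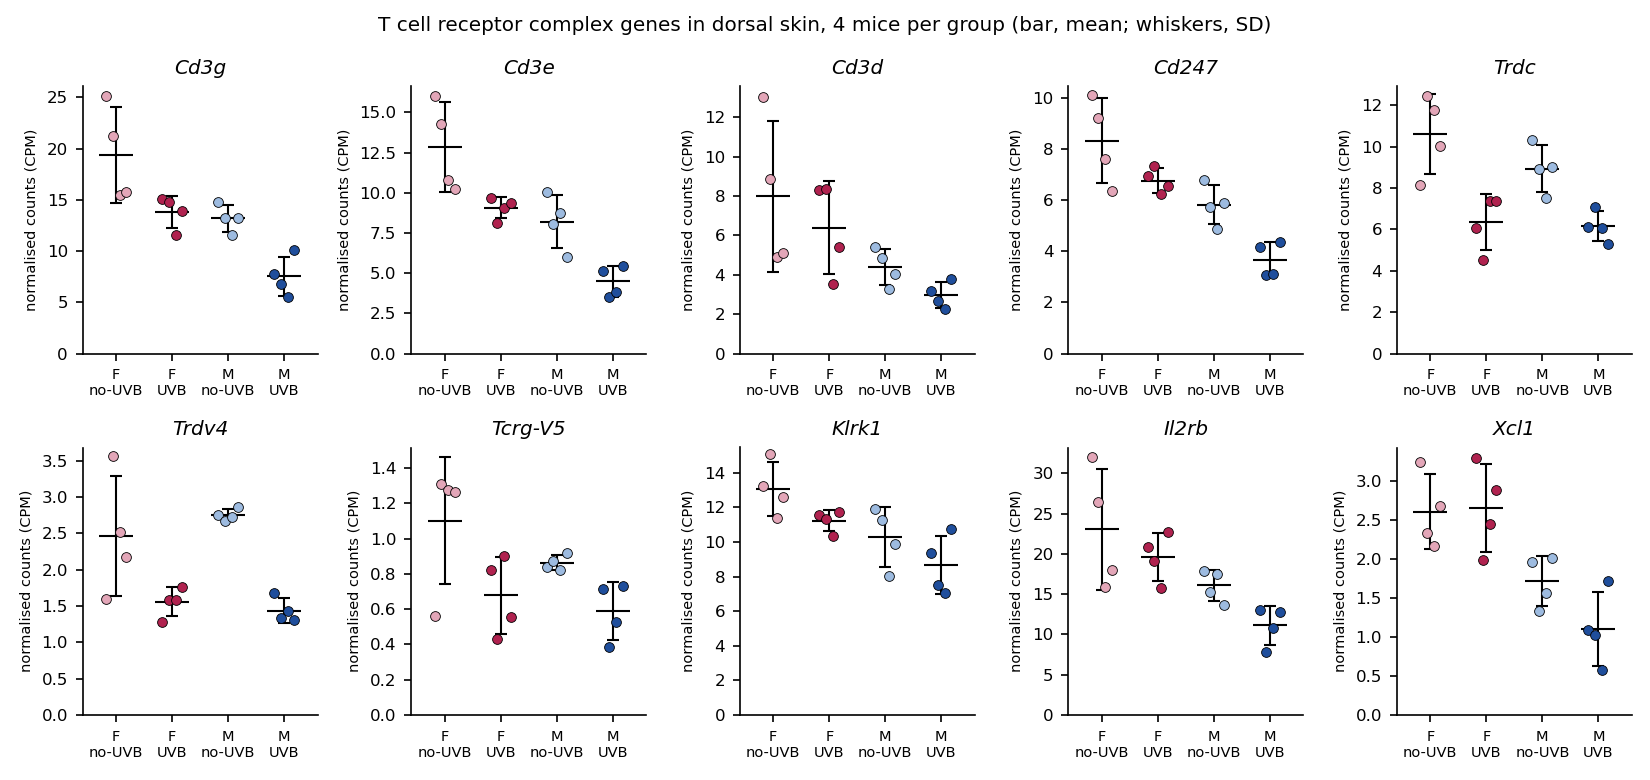
Normalised counts (CPM, linear axes from 0) of the 10 genes in each of the 16 mice, by sex (F, female; M, male) and treatment, with the mean (bar) and SD (whiskers) of 4 mice. UVB-irradiated males are the lowest group by mean for every gene, and 1 no-UVB female is high for *Cd3g*, *Cd3e*, *Cd3d*, *Cd247* and *Il2rb* but low for *Trdv4* and *Tcrg-V5*.

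Among the signalling chains, *Cd3g* (CD3 gamma, on chromosome 9) had the most reads. In males it was at 14.8, 13.2, 11.6 and 13.2 CPM without UVB and at 7.72, 6.76, 5.54 and 10.1 CPM after UVB. In females it was at 25.1, 21.2, 15.5 and 15.7 CPM without UVB and at 15.1, 14.8, 11.5 and 13.9 CPM after UVB. Every irradiated mouse lay under every control of its sex. The log2 fold change was -0.79 ± 0.15 (SE) in males (adjusted p = 0.00141, edgeR) and -0.48 ± 0.16 in females (adjusted p = 0.0719, edgeR). Without any of 5 females in turn (UVB replicates 1, 3 and 4 and no-UVB replicates 1 and 2) the female call was lost, with an adjusted p of 0.104 to 0.174.

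*Cd3e* encodes the CD3 epsilon chain, which pairs with both CD3 gamma and CD3 delta. Its levels in males were 10.02, 8.06, 8.75 and 6.02 CPM without UVB and 5.11, 3.51, 3.85 and 5.47 CPM after UVB. In females they were 16.02, 14.3, 10.8 and 10.3 CPM without UVB and 9.68, 8.15, 9.04 and 9.39 CPM after UVB. The groups were again separate in both sexes. The log2 fold change was -0.84 ± 0.18 in males (adjusted p = 0.00233, edgeR) and -0.50 ± 0.15 in females (adjusted p = 0.0456, edgeR). The female call was lost without no-UVB replicate 2, where the adjusted p was 0.113 at a log2 fold change of -0.44. Without no-UVB replicate 1 the value was -0.37 and the call was kept (adjusted p = 0.0931, edgeR).

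*Cd247*, on chromosome 1, encodes the zeta chain that carries most of the receptor's signalling motifs. It was at 6.80, 5.76, 4.90 and 5.91 CPM in no-UVB males and at 4.17, 3.06, 3.12 and 4.38 CPM in UVB-irradiated males. No-UVB females had 10.1, 9.23, 7.63 and 6.37 CPM and UVB-irradiated females 6.95, 7.36, 6.26 and 6.56 CPM. The male groups were separate, and the female groups overlapped. *Cd247* fell in males (log2 fold change -0.63 ± 0.16, adjusted p = 0.00574, edgeR) and was at -0.29 ± 0.15 in females (adjusted p = 0.210, edgeR). Leaving out no-UVB female replicate 4, the lowest of that group, gave -0.40 in females with an adjusted p of 0.0778. Antisense transcripts of *Pou2f1* cover exons of *Cd247*, and the strand-specific counts were used to keep them apart.

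*Cd3d* (CD3 delta) was the most variable of the signalling chains. Males had 5.41, 4.83, 3.29 and 4.01 CPM without UVB and 3.18, 2.68, 2.27 and 3.81 CPM after UVB. Females ranged from 4.88 to 13.0 CPM without UVB, in the order 13.0, 8.88, 4.88 and 5.10, and had 8.29, 8.33, 3.52 and 5.39 CPM after UVB. The groups overlapped in both sexes. *Cd3d* fell in males (log2 fold change -0.53 ± 0.20, adjusted p = 0.0407, edgeR), and in females the value was -0.31 ± 0.36 (adjusted p = 0.606, edgeR). The male call was lost without UVB replicate 3, no-UVB replicate 1 or no-UVB replicate 2 (adjusted p 0.103 to 0.122), and the female value was 0.03 without no-UVB replicate 1.

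The receptor chain genes were next. *Trdc*, the constant region of every delta chain, fell in both sexes. Males had 10.3, 8.93, 7.54 and 9.002 CPM without UVB and 6.10, 7.08, 6.07 and 5.32 CPM after UVB. Females had 8.14, 12.4, 11.8 and 10.1 CPM without UVB and 6.07, 4.54, 7.37 and 7.39 CPM after UVB. All irradiated mice lay below the controls of their sex, and the log2 fold change was -0.52 ± 0.13 in males (adjusted p = 0.00496, edgeR) and -0.74 ± 0.18 in females (adjusted p = 0.0203, edgeR). *Trdc* kept its call in both sexes without any of the mice in turn, with an adjusted p of at most 0.0591. Exons of *Trdc* overlap the antisense genes *Trdv5* and Gm43434, and counts that ignored strand held 67.5% of its strand-specific reads.

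*Trdv4*, the delta segment of the epidermal receptor, had few reads but a small spread in males. Its reads came from whole skin and were not traced to epidermal cells. The skin also held reads of a further gamma segment, *Tcrg-V6*, at 0 to 14 per mouse. No-UVB males had 2.75, 2.67, 2.73 and 2.87 CPM and UVB-irradiated males 1.68, 1.34, 1.43 and 1.30 CPM. In no-UVB females it was at 1.60, 3.57, 2.52 and 2.17 CPM, and in UVB-irradiated females at 1.29, 1.59, 1.59 and 1.77 CPM. The male groups lay well apart, and in females only no-UVB replicate 1 fell among the irradiated mice. The log2 fold change was -0.89 ± 0.16 in males (adjusted p = 0.000704, edgeR), the lowest of the 10 genes, and -0.66 ± 0.24 in females (adjusted p = 0.0952, edgeR). The female call was lost without any of 7 of the 8 females, with an adjusted p of 0.117 to 0.248, and held only without no-UVB replicate 1, where it was 0.0338.

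*Tcrg-V5*, the gamma segment of the same receptor, had 6 to 39 reads per mouse. It was at 0.839, 0.875, 0.823 and 0.917 CPM in no-UVB males and at 0.716, 0.383, 0.528 and 0.730 CPM in UVB-irradiated males. Females had 0.563, 1.31, 1.28 and 1.26 CPM without UVB and 0.823, 0.433, 0.900 and 0.558 CPM after UVB. The male groups did not overlap, and in females only no-UVB replicate 1 lay among the irradiated mice. At these counts the test was not passed, with a log2 fold change of -0.48 ± 0.25 in males (adjusted p = 0.130, edgeR) and -0.71 ± 0.33 in females (adjusted p = 0.176, edgeR). Without no-UVB female replicate 1 the female value was -0.93 with an adjusted p of 0.0530.

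*Il2rb* binds interleukins 2 and 15 together with the common gamma chain. Males had 17.9, 15.3, 17.5 and 13.7 CPM without UVB and 13.1, 7.85, 10.8 and 12.8 CPM after UVB. Females had 32.0, 26.4, 15.9 and 17.9 CPM without UVB and 20.8, 19.1, 15.8 and 22.8 CPM after UVB. Only the male groups were separate, at a log2 fold change of -0.50 ± 0.15 (adjusted p = 0.0154, edgeR), and the female value was -0.22 ± 0.21 (adjusted p = 0.522, edgeR). Leaving out 1 female at a time gave -0.37 (without no-UVB replicate 3) to -0.03 (without no-UVB replicate 1), and no adjusted p under 0.238.

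*Klrk1*, the gene of NKG2D, differed least between treatments among the genes with a negative value in both sexes. It was at 11.9, 11.3, 8.01 and 9.86 CPM in no-UVB males and at 9.34, 7.53, 7.08 and 10.7 CPM in UVB-irradiated males. Females had 13.2, 15.1, 11.4 and 12.6 CPM without UVB and 11.6, 11.3, 10.3 and 11.7 CPM after UVB. The groups overlapped in both sexes, and neither test was passed (log2 fold change -0.22 ± 0.15 with adjusted p = 0.261 in males and -0.21 ± 0.10 with adjusted p = 0.201 in females, edgeR).

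*Xcl1*, which draws XCR1-bearing dendritic cells, had a value close to 0 in females. Males had 1.96, 1.34, 1.56 and 2.01 CPM without UVB and 1.09, 1.02, 0.581 and 1.72 CPM after UVB. Females had 3.25, 2.34, 2.16 and 2.68 CPM without UVB and 3.29, 1.98, 2.44 and 2.88 CPM after UVB. Irradiated male replicate 4 lay within the male controls, and the female groups covered the same range. *Xcl1* fell in males at the edge of the threshold (log2 fold change -0.60 ± 0.29, adjusted p = 0.0968, edgeR) and was at 0.03 ± 0.20 in females (adjusted p = 0.943, edgeR), where the sign was negative with counts that ignored strand or with upper-quartile scaling. The male call was lost without any of 6 mice (UVB replicates 1, 2 and 3 and no-UVB replicates 1, 3 and 4), with an adjusted p of 0.125 to 0.225.

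**Figure D2:**
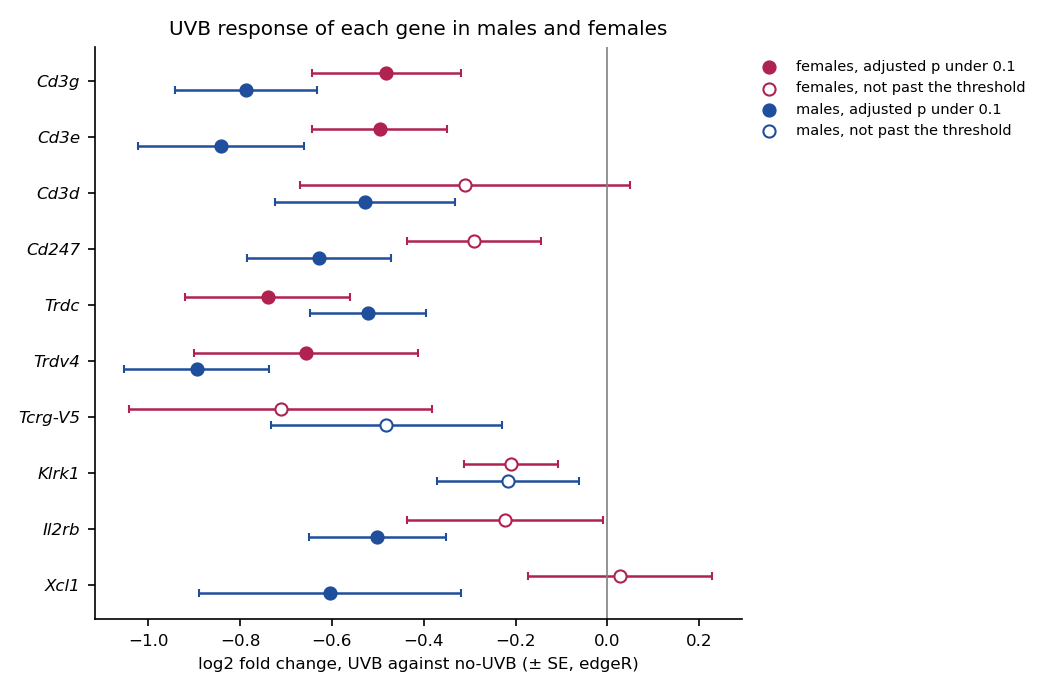
Log2 fold change of UVB-irradiated against no-UVB mice for each gene (horizontal axis), with SE from edgeR, in 8 males and in 8 females. Filled points passed an adjusted p of 0.1: 8 genes in males and 4 in females, all below 0.

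The difference between the sexes in response was tested for each gene as an interaction over all 16 mice. With the threshold of 0.1 on the adjusted p, it was passed by 0 of the 10 genes with edgeR and by 0 with DESeq2's Wald test, while by edgeR 4.25% of 17406 genes had a lower response in males and 2.75% a higher one. At an unadjusted p under 0.05, 0 of the 10 genes and 3625 of all 17406 passed. The value nearest to the threshold was that of *Xcl1*, at -0.65 ± 0.36 on the log2 scale (adjusted p = 0.313, edgeR). *Trdc* (0.20 ± 0.23, adjusted p = 0.649, edgeR) and *Tcrg-V5* (0.21 ± 0.43, adjusted p = 0.814, edgeR) had positive values, in that the fall was smaller in males than in females, and the other 8 genes had negative ones. The sign turned for *Trdc* with counts that ignored strand and for *Klrk1* with DESeq2. The larger number of genes called in males was therefore not accompanied by a tested difference in the response of any of them.

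Levels without UVB differed between the sexes for part of the signalling chains. In no-UVB mice, *Cd3e* (log2 fold change of males against females -0.64 ± 0.17, adjusted p = 0.0286, edgeR), *Cd247* (-0.52 ± 0.15, adjusted p = 0.0476, edgeR) and *Cd3g* (-0.55 ± 0.17, adjusted p = 0.0579, edgeR) were lower in males, and 0 of the 10 genes were higher. Of all genes tested, 4.58% were lower and 7.21% higher in no-UVB males. Other leukocyte genes were lower in no-UVB males too, with 7 of 10 pan-leukocyte markers, 9 of 18 genes that pass on the receptor's signal and 5 of 12 alpha-beta T cell genes. Of these lists, 1 signalling gene was higher, and of 10 macrophage markers 0 passed. The part of this in the difference of the CD3 chains was not tested. The receptor chain genes did not pass, with values of -0.25 ± 0.16 for *Trdc* (adjusted p = 0.385, edgeR), 0.15 ± 0.19 for *Trdv4* (adjusted p = 0.713, edgeR) and -0.36 ± 0.28 for *Tcrg-V5* (adjusted p = 0.509, edgeR). The count of 3 genes was 1 without no-UVB female replicate 1 or 2 or without no-UVB male replicate 2 or 3. It was 6 without no-UVB female replicate 3 and 5 without no-UVB female replicate 4.

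In UVB-irradiated mice 7 of the 10 genes were lower in males and 0 higher, against 12.5% lower and 12.8% higher among all genes tested. *Xcl1* had the largest difference, at -1.25 ± 0.26 on the log2 scale (adjusted p = 0.00496, edgeR), and every irradiated male lay below every irradiated female. *Cd3d* was at -1.09 ± 0.34 (adjusted p = 0.0364, edgeR), *Cd3e* at -0.997 ± 0.18 (adjusted p = 0.00208, edgeR), *Cd3g* at -0.87 ± 0.18 (adjusted p = 0.00467, edgeR) and *Cd247* at -0.87 ± 0.16 (adjusted p = 0.00243, edgeR). *Il2rb* was at -0.81 ± 0.21 (adjusted p = 0.0163, edgeR) and *Klrk1* at -0.37 ± 0.14 (adjusted p = 0.0794, edgeR). All 4 signalling chains were thus lower in irradiated males. So were 9 of 10 pan-leukocyte markers, 10 of 18 genes that pass on the receptor's signal and 7 of 12 alpha-beta T cell genes, with 0 higher. Of 10 macrophage markers 1 was lower and 1 higher. The counts of 3 genes without UVB and 7 after it do not show a wider gap, since 0 genes passed the interaction. At an unadjusted p under 0.05 (edgeR), 7 of the 10 genes passed in each comparison. Of all 17406 genes, 3857 did so without UVB and 5577 after it. DESeq2 called 6 of the 10 without UVB and 7 after it, and 2448 and 4710 of all genes. Over the 10 genes the median difference was -0.52 on the log2 scale without UVB and -0.84 after it. That shift was not tested for the genes as a set. The 3 receptor chain genes were not called, at -0.05 ± 0.17 for *Trdc* (adjusted p = 0.883, edgeR), -0.10 ± 0.21 for *Trdv4* (adjusted p = 0.780, edgeR) and -0.15 ± 0.32 for *Tcrg-V5* (adjusted p = 0.784, edgeR). The call on *Klrk1* was lost without any of 6 irradiated mice (female replicates 1, 2 and 4 and male replicates 1, 2 and 3), with an adjusted p of 0.106 to 0.205, and that on *Cd3d* without irradiated female replicate 1 or 2, with an adjusted p of 0.107.

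**Figure D3:**
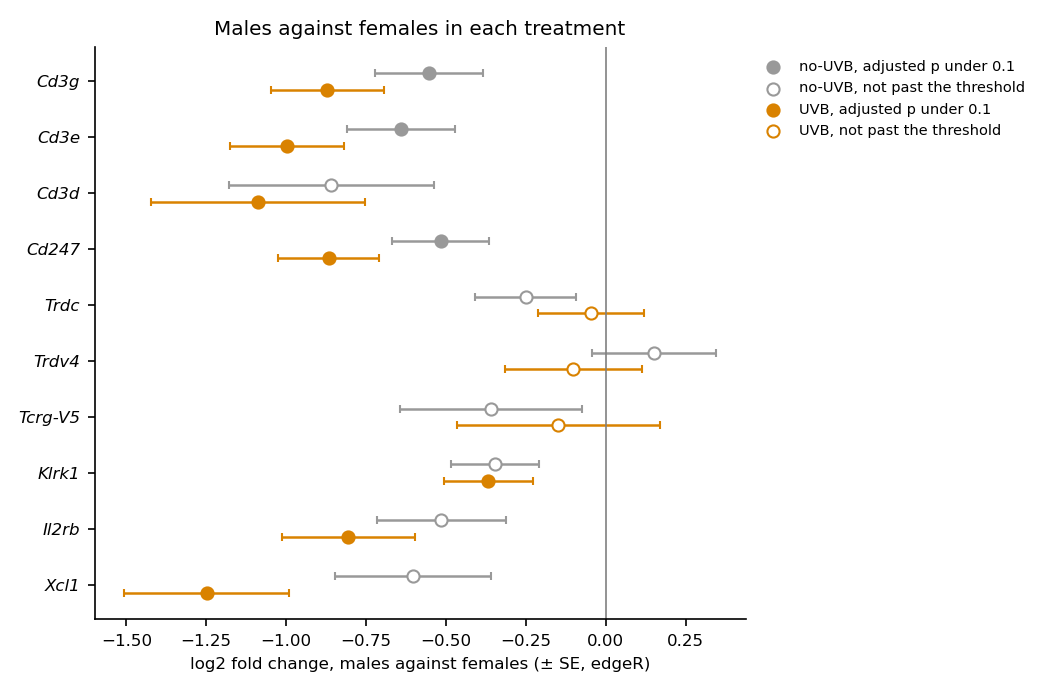
Log2 fold change of males against females for each gene (horizontal axis), with SE from edgeR, among 8 no-UVB and among 8 UVB-irradiated mice. Filled points passed an adjusted p of 0.1: *Cd3g*, *Cd3e* and *Cd247* without UVB, and the 4 signalling chains, *Klrk1*, *Il2rb* and *Xcl1* after UVB, while *Trdc*, *Trdv4* and *Tcrg-V5* are open in both.

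Set per kb of exon, the levels of the 10 genes in no-UVB females fell from 5.92 ± 1.42 CPM per kb for *Cd3g*, 5.55 ± 1.86 for *Trdv4*, 5.30 ± 1.73 for *Il2rb* and 4.98 ± 0.915 for *Xcl1* to 1.82 ± 0.214 for *Klrk1* and 1.42 ± 0.285 for *Cd247*. *Tcrg-V5* (3.23 ± 1.06), *Cd3e* (3.15 ± 0.682), *Cd3d* (3.08 ± 1.48) and *Trdc* (2.74 ± 0.499) lay between, and neighbours in this order differed by less than 1 SD apart from the steps from *Xcl1* to *Tcrg-V5*, from *Trdc* to *Klrk1* and from *Klrk1* to *Cd247*. In UVB-irradiated males *Trdv4* stood highest, at 3.24 ± 0.384 CPM per kb, and *Cd247* lowest, at 0.626 ± 0.117. Such orders rest on the annotated exon lengths, for example 444 bases for *Trdv4* and 3865 for *Trdc*.

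Between mice of the same group, the signalling chains varied together. Deviations of log2 CPM from the group means were correlated over the 16 mice, and the 6 pairs among *Cd3d*, *Cd3e*, *Cd3g* and *Cd247* had r of 0.57 to 0.89 (median 0.76). The 3 pairs among *Trdc*, *Trdv4* and *Tcrg-V5* had r of 0.44 to 0.54 (median 0.45), and the 12 pairs between the 2 sets had r of -0.47 to 0.01 (median -0.22). With *Trac*, the signalling chains had r of 0.76 to 0.94 and the receptor chain genes r of -0.40 to -0.23. These are descriptions, with no test, of libraries that share their depth and scaling. They were also computed without no-UVB female replicate 1, a choice made after seeing the data. The signalling chains then kept r of 0.45 to 0.85 among themselves and 0.70 to 0.92 with *Trac*. Among the receptor chain genes r was -0.04 to 0.32 (median 0.16). For the pairs between the 2 sets the median turned to 0.17, and the receptor chain genes had r of -0.12 to 0.35 with *Trac*, so that the inverse relation, and much of the correlation among the receptor chain genes, rested on this mouse. *Il2rb* had r of 0.85 with *Trac* and -0.36 with *Trdc* over the 16 mice, and 0.77 and -0.13 without this mouse. For *Klrk1* the values with *Trac* and *Trdc* were 0.60 and 0.03, and 0.73 and 0.06 without it, and for *Xcl1* they were 0.43 and -0.08, and 0.33 and 0.08 without it.

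That mouse had the highest *Trac* of all 16, at 19.5 CPM, while the other no-UVB females had 13.6, 6.55 and 6.01 CPM. It was also highest for *Cd8a*, at 45.9 CPM, where the other no-UVB females had 29.0, 13.95 and 14.2 CPM. Its *Trdv4* and *Tcrg-V5* were the lowest among the no-UVB females. Without it, the log2 fold change after UVB in females was -0.37 ± 0.13 for *Cd3e* (adjusted p = 0.0931, edgeR), -0.33 ± 0.14 for *Cd3g* (adjusted p = 0.144, edgeR), -0.19 ± 0.14 for *Cd247* (adjusted p = 0.416, edgeR) and -0.03 ± 0.18 for *Il2rb* (adjusted p = 0.943, edgeR). Those of *Klrk1* (-0.20 ± 0.12, adjusted p = 0.269, edgeR) and *Xcl1* (0.15 ± 0.21, adjusted p = 0.666, edgeR) stayed past no threshold, and *Trdc* was at -0.85 ± 0.17 (adjusted p = 0.0120, edgeR).

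**Figure D4:**
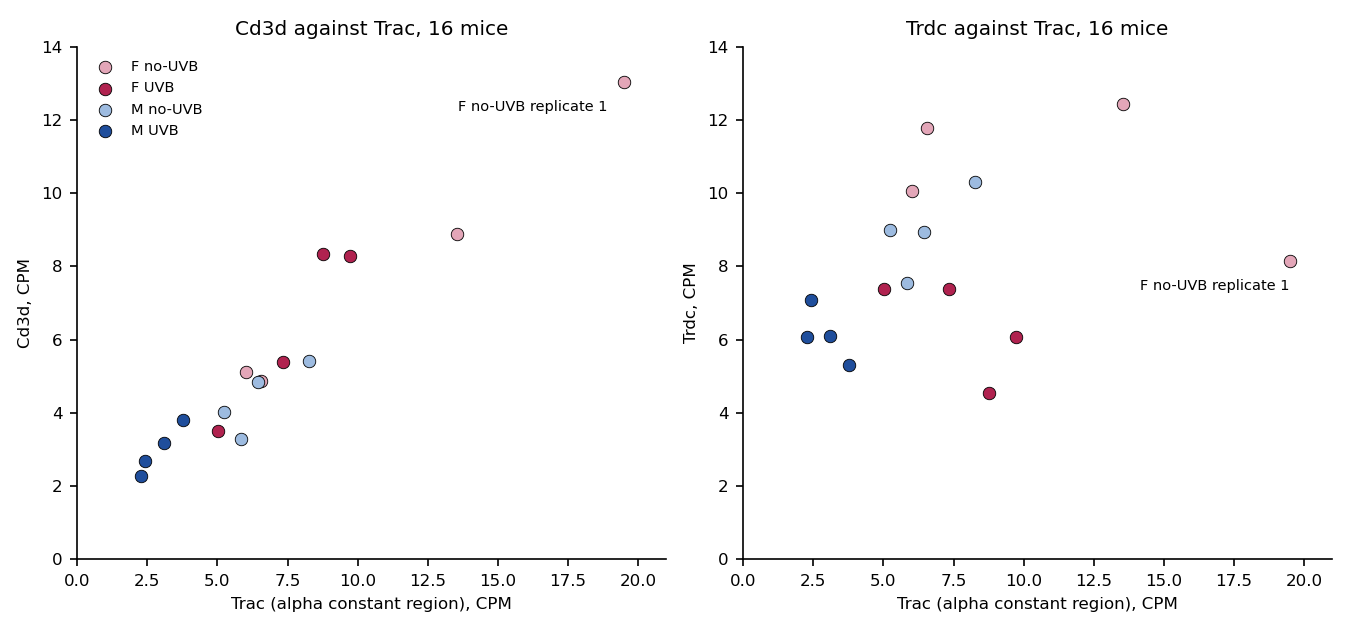
CPM of *Cd3d* (left) and of *Trdc* (right) against CPM of *Trac* in the 16 mice, by sex (F, female; M, male) and treatment, on linear axes from 0. No-UVB female replicate 1, on which the inverse relation of *Trdc* to *Trac* within groups rests, has the highest *Trac* (19.5 CPM) and the highest *Cd3d* (13.0 CPM) but 8.14 CPM of *Trdc*.

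The ratio of *Trdc* to *Trac* counts within each library was compared between treatments. It is not set per length, so that a value above 1 does not mean more delta than alpha transcripts. In males it was 1.25, 1.38, 1.29 and 1.72 without UVB and 1.98, 2.90, 2.66 and 1.41 after UVB, a mean difference of 0.62 on the log2 scale (exact permutation test, two-sided, p = 0.0571, adjusted over 4 ratio tests p = 0.114). In females it was 0.418, 0.918, 1.80 and 1.67 without UVB and 0.625, 0.520, 1.47 and 1.01 after UVB, a mean difference of -0.32 (exact permutation test, two-sided, p = 0.629, adjusted p = 0.838). Leaving out 1 female at a time moved the female difference from -0.75 (without no-UVB replicate 1, adjusted p = 0.191) to -0.05 (without no-UVB replicate 3, adjusted p = 0.943). Neither difference passed, but the test could hardly do so. With 4 against 4 mice p cannot be below 0.0286, and that p in 1 of the 4 tests alone adjusts to 0.114, above 0.1. The lack of a call is thus no sign of an unchanged ratio. The male and female differences had opposite signs. *Trac* itself fell in males (log2 fold change -1.13 ± 0.19, adjusted p = 0.000471, edgeR) and was at -0.56 ± 0.37 in females (adjusted p = 0.346, edgeR). The beta constant region *Trbc2* rose in males, by 0.53 on the log2 scale, so that the ratio describes *Trac* and not all alpha-beta T cell genes.

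The ratio of *Cd3e* to *Ptprc*, which encodes the pan-leukocyte antigen CD45, was taken in the same way. In males it was 0.081, 0.072, 0.085 and 0.061 without UVB and 0.060, 0.047, 0.051 and 0.057 after UVB, so that every irradiated male lay below every control. The mean difference was -0.47 on the log2 scale (exact permutation test, two-sided, p = 0.0286, the smallest that 4 against 4 mice allow, adjusted p = 0.114). In females it was 0.092, 0.092, 0.069 and 0.069 without UVB and 0.088, 0.063, 0.083 and 0.083 after UVB, a difference of -0.01 (exact permutation test, two-sided, adjusted p = 0.943). *Ptprc* fell in both sexes, by 0.37 ± 0.09 on the log2 scale in males (adjusted p = 0.00496, edgeR) and by 0.46 ± 0.08 in females (adjusted p = 0.00502, edgeR).

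The counts of the lists that follow stand beside a background in which 30.5% of all genes tested fell and 29.0% rose in males, and 10.6% fell and 12.8% rose in females, and no list was tested against it. Few other genes of the gamma-delta receptor had enough reads to be tested. Of 18 listed constant, variable and joining genes, 3 were tested in males, of which 2 fell, and 4 were tested in females, of which 1 fell. *Tcrg-C1*, the constant region joined to *Tcrg-V5*, fell in males (log2 fold change -0.60 ± 0.19, adjusted p = 0.0229, edgeR) and in females (-0.58 ± 0.20, adjusted p = 0.0748, edgeR), where the call was lost without any of 6 mice (UVB replicates 1, 2 and 3 and no-UVB replicates 2, 3 and 4), with an adjusted p of 0.113 to 0.184. *Tcrg-C2* fell in males (-0.86 ± 0.28, adjusted p = 0.0218, edgeR). *Tcrg-C1* and *Tcrg-C2* are close copies of each other, and the sharing of reads between them was not tested. Of 12 alpha-beta T cell genes, 4 rose and 4 fell in males, near the shares over all genes, and 0 passed in females. *Trbc2*, a beta constant region, rose in males (0.53 ± 0.09, adjusted p = 0.000379, edgeR), as did *Cd4* (0.90 ± 0.37, adjusted p = 0.0761, edgeR), which macrophages can also express, and *Cd8a* fell (-0.75 ± 0.28, adjusted p = 0.0498, edgeR). The call on *Cd4* was lost without male UVB replicate 2 or no-UVB replicate 1, 2 or 4 (adjusted p 0.126 to 0.162), and that on *Cd8a* without male UVB replicate 2 or 3 or no-UVB replicate 1 (adjusted p 0.106 to 0.116).

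Of 18 genes that pass on the receptor's signal, 17 were tested in males, where 10 fell and 0 rose, with a median log2 fold change of -0.48, and 18 in females, where 5 fell and 0 rose, with a median of -0.29. *Fyn*, a kinase of the receptor complex, fell in males (-0.58 ± 0.07, adjusted p = 6.27e-05, edgeR) and in females (-0.24 ± 0.08, adjusted p = 0.0735, edgeR), and its interaction passed (-0.35 ± 0.11, adjusted p = 0.0859, edgeR). Its female call was lost without UVB replicate 3 or no-UVB replicate 1, 2 or 4 (adjusted p 0.115 to 0.170). The interaction was lost without 11 of the 16 mice in turn (adjusted p up to 0.182) and held without UVB female 3, no-UVB female 1, UVB male 3 or 4 or no-UVB male 3. *Thy1*, a surface protein of T cells that fibroblasts also carry, fell in males (-0.24 ± 0.07, adjusted p = 0.0177, edgeR). *Rasgrp1* and *Prkcq* passed in neither sex.

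Of 9 NKG2D ligand genes, 5 were in the files and 2 were tested, and the keratinocyte ligand *H60c* rose in both sexes. No-UVB males had 11.5, 12.1, 17.9 and 18.3 CPM and UVB-irradiated males 86.1, 92.0, 97.5 and 77.6 CPM. No-UVB females had 15.3, 20.1, 17.9 and 10.7 CPM and UVB-irradiated females 48.8, 51.2, 64.0 and 44.6 CPM. Every irradiated mouse stood above every control, and every irradiated male above every irradiated female. *H60c* rose by 2.59 ± 0.16 on the log2 scale in males (adjusted p = 2.73e-06, edgeR) and by 1.71 ± 0.18 in females (adjusted p = 0.000436, edgeR), and the difference between the sexes passed (0.87 ± 0.26, adjusted p = 0.0791, edgeR). That difference ran from 0.76 to 1.03 without each mouse in turn, but the call was lost without 11 of the 16 (adjusted p up to 0.168) and held without UVB female 3, no-UVB female 4, UVB male 4 or no-UVB male 3 or 4. *Ulbp1*, a further ligand, rose in males (0.39 ± 0.14, adjusted p = 0.0310, edgeR), whereas *Klrk1* passed in neither sex.

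**Figure D5:**
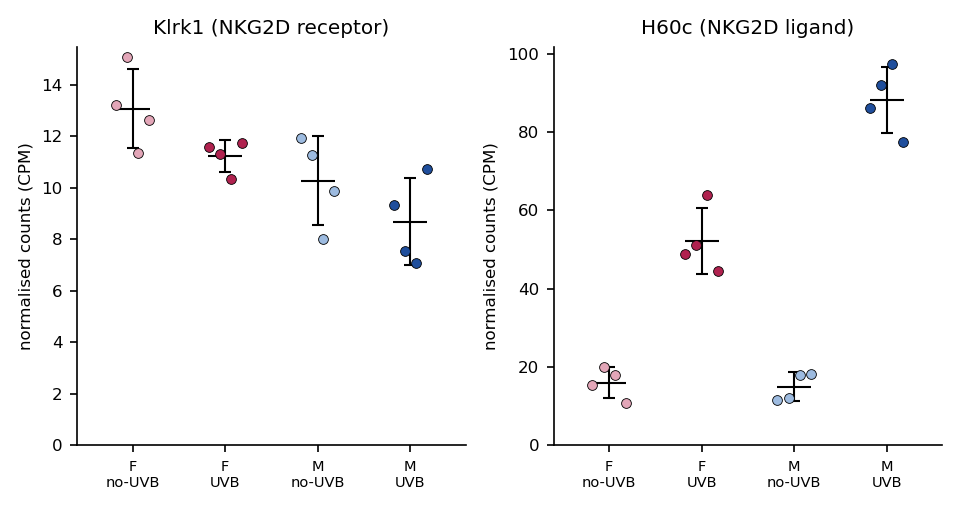
Normalised counts (CPM, linear axes from 0) of the receptor gene *Klrk1* and the ligand gene *H60c* in 16 mice, by sex (F, female; M, male) and treatment, with the mean (bar) and SD (whiskers) of 4 mice. *H60c* is at or above 44.6 CPM in every irradiated mouse and at or below 20.1 CPM in every control, while *Klrk1* overlaps between treatments.

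Other lists of epidermal T cell biology were mixed. Of 12 genes of the interleukin 2, 7 and 15 axis, 11 were tested in males, where 6 fell and 1 rose, and in females 1 fell and 0 rose. *Il15ra*, which presents interleukin 15 to *Il2rb*, fell in males (-0.33 ± 0.08, adjusted p = 0.00444, edgeR), and *Stat5b*, which acts below both, fell in males (-0.42 ± 0.06, adjusted p = 0.000213, edgeR) and in females (-0.24 ± 0.08, adjusted p = 0.0733, edgeR), a female call lost without UVB replicate 1, 3 or 4 or no-UVB replicate 2 or 4 (adjusted p 0.106 to 0.175). Of 11 Skint genes, keratinocyte genes of the family in which *Skint1* selects these T cells in the thymus, 6 fell and 2 rose in males, and 4 fell and 2 rose in females. *Skint6* fell in both sexes (-0.70 ± 0.15 in males with adjusted p = 0.00282 and -0.38 ± 0.11 in females with adjusted p = 0.0405, edgeR), with the female call lost without no-UVB replicate 3 (adjusted p 0.104), and *Skint3* rose in males (0.57 ± 0.08, adjusted p = 0.000179, edgeR). Of 18 cytotoxic and NK receptor genes, 16 were tested in males, where 4 fell, among them *Prf1* (perforin, -0.94 ± 0.17, adjusted p = 0.000773, edgeR) and *Ctsw* (-0.68 ± 0.21, adjusted p = 0.0201, edgeR), and 2 rose, and in females 0 passed.

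Among 21 genes of epidermal residency and homing, 20 were tested in males, where 8 fell and 5 rose, near the shares over all genes, and 3 fell and 1 rose in females. *Cdh1*, the adhesion partner of the T cell integrin CD103, rose in males (0.54 ± 0.08, adjusted p = 0.000232, edgeR), as did *Cxcl16*, a ligand for skin T cells (1.02 ± 0.08, adjusted p = 4.07e-06, edgeR), which also rose in females (0.60 ± 0.20, adjusted p = 0.0734, edgeR), a call lost without UVB replicate 1, 3 or 4 or no-UVB replicate 3 or 4 (adjusted p 0.114 to 0.176). Of 12 costimulation and repair genes, 4 fell and 3 rose in males and 2 fell and 1 rose in females, with *Igf1* lower in males (-0.43 ± 0.08, adjusted p = 0.00131, edgeR). Of 11 genes of interleukin 17-producing gamma-delta T cells, 7 were tested and 1 fell in each sex. *Maf*, *Sox13* and *Il1r1* passed in neither.

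Markers of other cells moved with treatment as well, and their part in the results on the 10 genes was not tested. Their counts too are to be read against 30.5% lower and 29.0% higher over all genes in males, and 10.6% and 12.8% in females. The summed level of 9 keratinocyte markers was 10070 to 15030 CPM in no-UVB males and 22090 to 31350 CPM in UVB-irradiated males, and 8557 to 12920 against 13020 to 16530 CPM in females. That of 6 muscle markers was 18100 to 22260 CPM in no-UVB males and 11660 to 13450 CPM after UVB, and 11190 to 17690 against 12540 to 16730 CPM in females. Of 10 pan-leukocyte markers, 7 fell in males and 3 in females and 0 rose, with summed levels of 630.9 to 709.7 CPM in no-UVB males, 518.5 to 629.1 CPM in irradiated males, 818.6 to 1029 CPM in no-UVB females and 660.0 to 831.1 CPM in irradiated females. Of 8 Langerhans cell markers, 7 fell and 1 rose in males and 0 passed in females. Of 10 macrophage markers, 5 fell and 1 rose in males and 1 fell in females. Of 10 neutrophil markers, 6 rose and 1 fell among 9 tested in males, and 3 rose and 1 fell among 8 tested in females. Of 8 mast cell markers, 3 rose and 1 fell in males and 5 rose and 1 fell in females. Of 6 adipocyte markers, 3 fell in males and 0 passed in females, and of 4 B cell markers tested, 2 fell in males and 0 passed in females.

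The genes most like the 10 in pattern were sought among all other genes, by the correlation of log2 CPM with the mean standardised level of the 10 genes. Over the 16 mice the highest r were those of *Trat1* (0.96), *Zfp831* (0.96), *Akna* (0.95), *Cd96* (0.95), *Septin6* (0.95), *H2-Oa* (0.95), *Il18r1* (0.95) and *Ptk2b* (0.95). With the group means taken off they were *Tap2* (0.90), *Il18r1* (0.86), *Napsa* (0.86), *Klrb1b* (0.85), *H2-Oa* (0.85), *Zfp831* (0.85), *Guca1b* (0.84) and *Il9r* (0.84). *Il18r1*, *H2-Oa* and *Zfp831* stood among the 8 in both. *Trat1* encodes an adaptor bound to the T cell receptor complex and *Cd96* a surface receptor of T and NK cells.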

How the data were processed

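RNA from whole dorsal skin of 16 mice was sequenced as directional poly-A libraries. The authors aligned reads with STAR to GRCm39 and deposited raw read counts per gene for each mouse (STAR version not given in the sources used here), and the column of the kit's strand was used. Symbols were matched through GENCODE M39 for 54749 of 55359 identifiers. Counts were scaled by TMM, filtered with filterByExpr and tested with edgeR 4.0.16 (robust quasi-likelihood, Benjamini-Hochberg adjusted p under 0.1) in R 4.3.3, with the 8 mice of each sex fitted alone for UVB and all 16 mice for interactions and sex differences. DESeq2 1.42.0, other scalings, filters and thresholds, unstranded counts, a replicate block and leaving out each mouse were alternatives. Ratios of counts (pseudocount 0.5) used exact permutation tests. The scripts were tested on simulated data.

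The 10 genes, the gene lists and the tests were chosen with earlier results of these data known. Named besides the 10 genes are up to 4 genes of each list by mean CPM, list genes past the interaction threshold and the 8 genes of highest likeness by each measure; *Trac* and *Ptprc* were ratio denominators. Not every gene that the rule names is described, and 1 item is not reported here. Nothing states whether mice of a group shared a litter or cage, and p-values measure the spread between these mice. Counting error is smallest for *Il2rb* and largest for *Tcrg-V5*.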

Additional observations from a re-analysis of the deposited data

Results flagged for a closer look

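The *Tcrg-V5* level of no-UVB female replicate 1, 0.563 CPM, lay far below the other 3 no-UVB females, and it was the 1 mouse that stood apart by Dixon's test in 48 groups of 4 values. Chance alone flags about 1 in 20 such groups.

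None of the 10 genes passed the test of a difference between the sexes in the response to UVB, with values down to -0.65 ± 0.36 for *Xcl1*. Genes of the other lists passed, each by edgeR's interaction test over 16 mice at an adjusted p under 0.1. Over all genes 1218 of 17406 passed, and the lists were not tested against that share. Values are the log2 response of males minus that of females. Among T cell and epidermal genes the difference was -0.35 for *Fyn*, -0.78 for *Prf1*, 0.87 for *H60c*, -1.29 for *Klf2*, 0.66 for *Cd44* and -0.60 for *Skint9*. Among markers of other cells it was -0.51 for *Tbc1d4* (Langerhans cell list), 3.47 for *S100a8*, 2.24 for *S100a9* and 1.69 for *Mmp8* (neutrophil list), 0.49 for *Hpgds* (mast cell list) and 0.95 for *Krt14* (keratinocyte list). Muscle genes had -0.66 for *Acta1*, -0.94 for *Ckm*, -0.59 for *Tnnt3* and -0.79 for *Mylpf*. No sign turned without each of the 16 mice in turn, but only *Klf2*, *S100a8* and *Ckm* stayed past the threshold throughout. The call was lost in 12 of 16 such fits for *Acta1* and *Tnnt3*, 11 for *Fyn*, *H60c*, *Skint9*, *Mmp8* and *Krt14*, 10 for *Prf1*, 9 for *Hpgds*, 6 for *Mylpf*, 3 for *Cd44* and *S100a9* and 2 for *Tbc1d4*.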

How the results depend on the processing

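With a 2-fold change also required, the count of the 10 genes called went from 8 to 0 in males, from 4 to 0 in females, from 3 to 0 between the sexes without UVB and from 7 to 2 between the sexes after UVB. Of all 17406 genes tested between the sexes, 136 were lower past 2-fold in males without UVB and 256 after it. An adjusted p under 0.05 left 2 in females. DESeq2 called 6 between the sexes without UVB, and 2448 of all 17406 genes against 2052 with edgeR. Leaving out each mouse in turn gave 6 to 8 in males, 1 to 4 in females, 1 to 6 without UVB and 5 to 7 after UVB, and 0 for the interaction throughout.

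Replicate numbers did not pair the mice: correlations of same-numbered mice ran from -0.073 to 0.022 in males and from -0.115 to 0.217 in females, and 2 of 8 matched their own number best. With the replicate block the counts were 8 in males, 4 in females, 0 for the interaction, 6 between the sexes without UVB and 7 after UVB, and the ratios differed by -0.47 and -0.01 for *Cd3e* to *Ptprc* and 0.62 and -0.32 for *Trdc* to *Trac*, in males and females. Under the block 4936 of 16535 genes fell after UVB in males and 1514 of 16883 in females. Of 17406 genes, 835 were lower in males than in females without UVB and 2215 after it, against 797 and 2169 without the block. Under the block the calls on *Cd4* in males, *Stat5b* and *Cxcl16* in females and the interactions of *Prf1*, *Hpgds* and *Tnnt3* were lost.

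Signs turned for values near 0. Unstranded counts gave -0.0189 for the interaction of *Trdc*, -0.15 for *Xcl1* in females and 0.0282 for the ratio of *Cd3e* to *Ptprc* in females. DESeq2 gave 0.0097 and its size factors 0.0091 for the interaction of *Klrk1*, and upper-quartile scaling -0.0094 for *Xcl1* in females. Without each mouse in turn, values ran from -0.49 to 0.0289 for *Cd3d* in females, -0.18 to 0.0362 for *Trdc* and -0.33 to 0.0257 for *Tcrg-V5* between irradiated sexes, -0.005 to 0.37 for *Trdv4* between no-UVB sexes, -0.14 to 0.0624 for the interaction of *Klrk1*, -0.0936 to 0.15 for *Xcl1* in females and -0.0825 to 0.0909 for the female ratio of *Cd3e* to *Ptprc*. Without no-UVB female replicate 1, median correlations turned to 0.17 between the 2 sets and to 0.044 for the receptor chain genes with *Trac* and 0.0392 with *Ptprc*.

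Over all genes, interaction calls were 1218 (478 higher, 740 lower) against 2040 with DESeq2 (1102 higher, 938 lower), 724 with every gene of at least 1 count and 687 higher and 641 lower with DESeq2 size factors. Upper-quartile scaling changed 4802 higher and 5051 lower to 3880 and 6130 in males, 2162 higher and 1787 lower to 1737 and 2157 in females, and 2222 and 2169 to 1659 and 2736 between irradiated sexes. Leaving out 1 mouse gave as few as 461 interaction calls. The causes were not tested.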
